A study of Mus musculus with 6 samples.

Results

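The genes described here encode the colony-stimulating factors and their receptor chains, 8 of the 41549 genes listed for bone marrow-derived macrophages (Mφs). They comprise 3 ligands (Csf1, Csf2 and Csf3) and 5 receptor chains (Csf1r, Csf2ra, Csf2rb, Csf2rb2 and Csf3r), and were picked by gene symbol. The set was chosen by its biology with the difference between groups in these same read counts already known, so the members' levels and fold changes are a description and carry no test. The Mφs were grown from the bone marrow of wild type C57Bl/6 N mice of 10 to 12 weeks by 7 days in M-CSF at 10 ng/ml, and were polarized to M2 with IL-4 and IL-13 at 10 ng/ml for 48 h. Before polarization, 1 group was transfected with an antisense inhibitor of the tRNA fragment 5′tRF-Glu(CTC), called αGlu, and the other with a control inhibitor, called Ctr. Each group had 3 libraries. All cells had therefore been raised in the ligand of Csf1r, had received IL-4 and IL-13 and had been lipofected. The labels do not tell whether the libraries of a group came from separate animals, whereas the study's reporting summary describes replicates of primary cells as preparations from different animals.

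Colony-stimulating factors are secreted proteins that drive the survival, growth and maturation of myeloid cells. M-CSF, the product of Csf1, and IL-34 bind the receptor tyrosine kinase encoded by Csf1r, on which most macrophages depend. GM-CSF, the product of Csf2, binds a receptor made of its own α chain (Csf2ra) and the common β chain (Csf2rb), which is shared with the receptors for IL-3 and IL-5; mice have a further β chain, Csf2rb2, which serves IL-3. G-CSF, the product of Csf3, binds a receptor formed by Csf3r and is best known for the production of neutrophils. The GM-CSF and G-CSF receptors have no kinase of their own and signal through JAK kinases and STAT factors.

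Csf3r and Csf2ra carried the largest differences, and their promoters are shown for that reason. The 300 bases run from 250 before to 50 after the RefSeq gene start on GRCm38.p6, at chr4:126024409-126024708 on the plus strand for Csf3r and at chr19:61228369-61228668 on the minus strand for Csf2ra. Capitals mark GAGGAA, a core recognised by the myeloid factor PU.1.
Csf3r: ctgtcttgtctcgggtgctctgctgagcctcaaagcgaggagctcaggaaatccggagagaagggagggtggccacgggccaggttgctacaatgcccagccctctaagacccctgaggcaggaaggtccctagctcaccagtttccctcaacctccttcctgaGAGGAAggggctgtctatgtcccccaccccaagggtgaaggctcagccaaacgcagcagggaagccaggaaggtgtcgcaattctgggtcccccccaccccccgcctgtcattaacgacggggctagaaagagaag
Csf2ra: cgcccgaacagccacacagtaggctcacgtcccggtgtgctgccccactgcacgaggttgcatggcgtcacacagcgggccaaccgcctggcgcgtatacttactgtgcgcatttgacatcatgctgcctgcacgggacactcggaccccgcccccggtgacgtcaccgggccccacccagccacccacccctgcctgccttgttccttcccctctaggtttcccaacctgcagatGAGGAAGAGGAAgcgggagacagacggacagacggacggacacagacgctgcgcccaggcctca
The Csf3r window held 1 such match, starting at position -86 from the gene start, and the Csf2ra window held 2 adjoining matches. Of the 32851 mouse promoters of the same length, 28.3% had GAGGAA on either strand. Csf3r also had 1 match to the NF-κB-type motif (GGGA and TTCC spaced by 2 bases) on either strand, found in 1.47% of promoters, which did not overlap the GAGGAA. Neither window held the C/EBP-type TTGCNNAA (10.8% of promoters), the STAT5-type TTCNNNGAA (8.3%), the STAT6-type motif with 1 more base between TTC and GAA (6.95%) or the AP-1-type TGANTCA (7.81%). Among the windows of other members, Csf1 also had 1 NF-κB-type match. Csf2rb2 had 2 GAGGAA matches and 1 STAT5-type match on either strand, and Csf2 had 1 C/EBP-type match. A link of these motifs to the fold changes was not tested. RefSeq promoters were found for 5 of the 8 members and not for Csf3, Csf2rb and Csf1r. The search and the shares left out the chromosome that carries Csf1r, so its promoter could not be found here.

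The receptor genes Csf2rb and Csf2rb2 are near-identical neighbours, which bears on how their reads can be assigned. In GENCODE M21 on GRCm38, Csf2rb lies at chr15:78325752-78353847 on the plus strand and Csf2rb2 at chr15:78282507-78305721 on the minus strand, with 20030 bases between them. Of 2628 aligned coding bases, 95.2% were identical and 125 differed. The stretch of 100 coding bases with the most differences is printed to show what tells the transcripts apart, with the 16 differing bases in capitals. It lies in exon 5 of Csf2rb (chr15:78338887-78338986, plus strand) and in exon 4 of Csf2rb2 (chr15:78294345-78294444, minus strand).
Csf2rb: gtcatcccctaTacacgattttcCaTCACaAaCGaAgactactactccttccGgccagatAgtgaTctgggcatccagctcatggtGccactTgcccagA
Csf2rb2: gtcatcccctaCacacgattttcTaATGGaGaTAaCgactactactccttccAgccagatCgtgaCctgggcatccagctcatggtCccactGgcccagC
Elsewhere the coding sequences ran identical for up to 242 bases. Of all stretches of 100 bases in the Csf2rb transcript, 6.96% also occurred in Csf2rb2, and 7.2% the other way round. The sources used here do not give how reads that match both genes were counted, which leaves the split of reads between these genes uncertain.

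The libraries held 17912831 to 30386653 reads over exons, and 11933 genes passed a filter on low counts. All 10 macrophage markers were above 10 CPM, the unit of reads scaled to the depth of each library, with a summed level of 11169 to 12526 CPM in Ctr and 11839 to 18690 in αGlu. Lyz2 made up 56.6% of this sum, and the markers did not move together. Cd68 was at 1809 to 2063 CPM in Ctr, against 1990, 1237 and 1144 CPM in αGlu 1, 2 and 3. Tyrobp was at 877 to 922 CPM in Ctr, against 840, 468 and 490 CPM in the same order. Mertk was also below every Ctr library in αGlu 2 and 3. Adgre1, Itgam, Lyz2, Fcgr1, Cd14, Aif1 and Mrc1 were above every Ctr library in αGlu 2 and 3. Mrc1 was at 771 to 948 CPM in Ctr, against 840, 1513 and 2379 CPM in αGlu 1, 2 and 3. The markers given here with their values were picked after these were seen. The libraries labelled αGlu were unlike each other: across all genes tested αGlu 1 correlated with αGlu 2 and αGlu 3 at a Pearson r of 0.929 each and with the Ctr libraries at 0.966 to 0.982. For this reason values are also given without αGlu 1. With all 6 libraries, edgeR's quasi-likelihood test called 0 of 11933 genes (0%) when a call needed an adjusted p below 0.1 and more than 1 log2 unit in either direction, although 2943 (24.7%) had an unadjusted p under 0.05. Without αGlu 1, 2290 of 12340 genes (18.6%) were called. αGlu 1 was set aside after its likeness to Ctr was seen. Fits without it therefore describe αGlu 2 and αGlu 3 against Ctr and are no independent test.

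In control M2 Mφs the receptor chains were abundant and the ligands scarce. Levels of different genes were compared in TPM, the unit that is scaled by gene length. In the Ctr libraries Csf1r was highest, followed by Csf2rb2, Csf2rb, Csf2ra and Csf3r, then Csf1, with Csf2 and Csf3 near 0. Mean TPM of each receptor exceeded that of the next by 2.08, 1.43, 1.45 and 2.81 times, and Csf3r exceeded Csf1 by 14.8 times. The ranges of these neighbours were apart and the order held in 3 of 3 Ctr libraries, but Csf2 and Csf3 could not be ordered. Among the 11933 genes tested, ranked by mean TPM in Ctr, Csf1r stood at place 80, Csf2rb2 at 185, Csf2rb at 295, Csf2ra at 424, Csf3r at 1184 and Csf1 at 7955. The same order of receptors was seen in αGlu 1. In αGlu 2 Csf3r had moved above Csf2rb and Csf2ra, and in αGlu 3 it also stood above Csf2rb2, so that only Csf1r was higher.

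**Figure D1:**
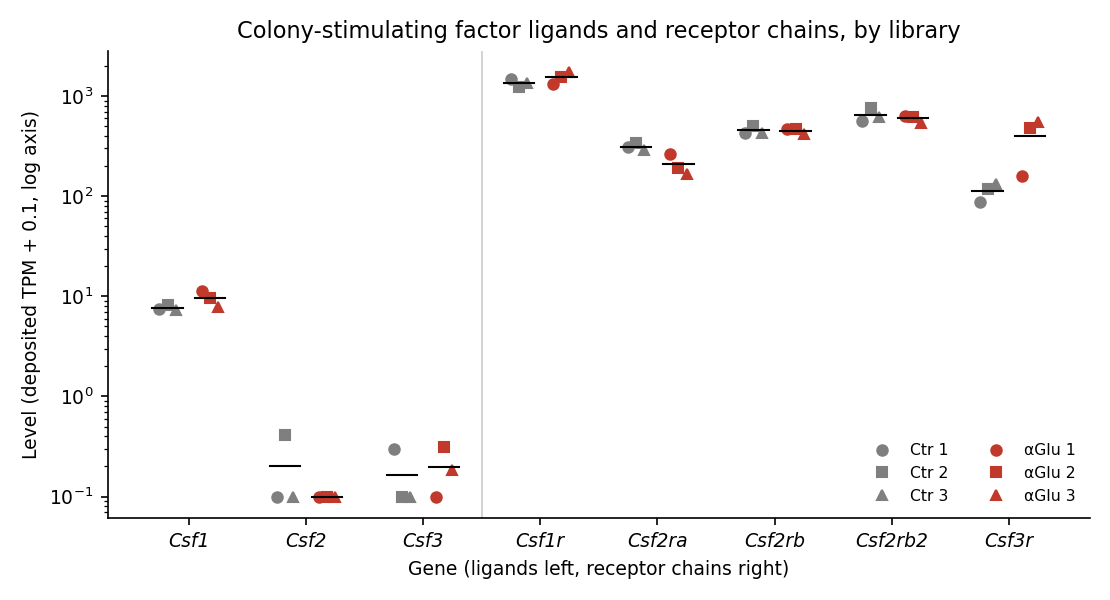
TPM (with 0.1 added, on a log axis) of the 8 genes in each of the 6 libraries, Ctr in grey and αGlu in red, with a short line at each group mean. Csf1r lies at 1239 TPM or more in every library, Csf2 and Csf3 have at most 0.311 TPM, and the αGlu symbols of Csf3r spread from 158 to 553 TPM.

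Of the ligands, only Csf1 was measurable. Csf1 (chr3:107741048-107760469, minus strand) was at 12.5, 14.5 and 12.8 CPM in Ctr 1, 2 and 3. In αGlu 1, 2 and 3 it was at 18.9, 15.8 and 12.5 CPM. The groups overlapped, with αGlu 1 highest of all libraries and αGlu 3 at the level of Ctr 1. The log2 fold change of αGlu over Ctr was 0.24 ± 0.17 (SE, n = 3 and 3), with 0.09 without αGlu 1 and 0.39 without αGlu 3 as the lowest and highest values when a library was left out. In TPM, Csf1 lay between 7.23 and 8.18 in Ctr and between 7.78 and 11.1 in αGlu. These are transcript levels, and the M-CSF protein added to the medium is not part of them. In bulk libraries such as these, fewer cells of a type and less RNA per cell cannot be told apart.

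Transcripts of GM-CSF and G-CSF were at the floor of detection. Csf2 (chr11:54247271-54249667, minus strand) had 2 reads in Ctr 2 and 0 in the other libraries. Csf3 (chr11:98701263-98703629, plus strand) had 2 reads in Ctr 1, 3 in αGlu 2 and 1 in αGlu 3. A count of 0 allows up to 3 reads, which was 0.0987 to 0.167 CPM depending on the library, a limit that covers counting error only. Neither gene passed the filter and no fold change is given. Csf2 overlaps a gene on the other strand, Gm12223, and the strand setting of the counting is not given in the sources used here. The ligands of the related receptors were as scarce, since Il34 had 1 read and Il3 had 0 reads in all 6 libraries together.

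Csf1r, the M-CSF receptor, differed between the groups by less than the spread of the libraries. It was at 2771, 2400 and 2608 CPM in Ctr 1, 2 and 3, against 2481, 2777 and 3055 CPM in αGlu 1, 2 and 3. The ranges overlapped, with Ctr 1 next to αGlu 2. The group means were 2593 ± 186 and 2771 ± 287 CPM (SD, n = 3 each), and the log2 fold change was 0.10 ± 0.17. It was 0.02 without αGlu 3, 0.04 without Ctr 2, 0.15 without Ctr 1 and 0.16 without αGlu 1. The reads of Csf1r may include some from Mir6983 and the end of Hmgxb3, which overlap it.

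Csf2ra, the chain that gives the GM-CSF receptor its specificity, was lower in each αGlu library than in any Ctr library. Its values (chr19:61223957-61228429, minus strand) were 289, 328 and 278 CPM in Ctr 1, 2 and 3. In αGlu 1, 2 and 3 they were 244, 172 and 146 CPM. αGlu 1 was nearest to Ctr, and αGlu 3 was lowest. The group means were 298 ± 26.1 and 187 ± 51.2 CPM, and the log2 fold change was -0.67 ± 0.21, or 0.628 of the Ctr level. Without αGlu 1 it was -0.91, and over all libraries left out in turn it ran from -0.91 to -0.52. With all libraries it stood at place 1288 of the 11933 genes counted from the lowest fold change.

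Both β chains had overlapping groups. Csf2rb, the common β chain, was at 1012, 1236 and 1047 CPM in Ctr 1, 2 and 3, against 1095, 1056 and 929 CPM in αGlu 1, 2 and 3. Csf2rb2, the IL-3 receptor β chain, was at 873, 1221 and 980 CPM in Ctr, against 976, 919 and 771 CPM in αGlu, in the same order. Ctr 2 was the highest and αGlu 3 the lowest library for both genes. The log2 fold changes were -0.10 ± 0.15 for Csf2rb and -0.21 ± 0.18 for Csf2rb2. Without Ctr 2 they were -0.01 and -0.06, and without αGlu 3 they were -0.03 and -0.11. Without αGlu 1 they were -0.15 and -0.28, and without Ctr 1 they were -0.14 and -0.30. When libraries were scaled by their total reads alone they were -0.01 and -0.12. The reads of the pair were divided nearly evenly, with Csf2rb taking 50.3% to 53.7% in Ctr and 52.9% to 54.6% in αGlu. In TPM, where the length of each gene is allowed for, its share was 41.3% ± 1.65 in Ctr (SD, n = 3).

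The level of the α chain relative to the β chains did not overlap between the groups, as was already so for Csf2ra itself. Csf2ra TPM as a percentage of the summed TPM of Csf2rb and Csf2rb2 was 31.1%, 26.7% and 27.7% in Ctr 1, 2 and 3. It was 23.9%, 17.7% and 17.5% in αGlu 1, 2 and 3. Every αGlu library lay below every Ctr library, with group means of 19.7% ± 3.65 and 28.5% ± 2.32. If each shared read was counted for 1 β chain, the sum in this ratio does not depend on the split, apart from the scaling by length. Shared reads that were dropped or counted for both genes would change the sum, and their handling is not given. The related α chain of the IL-3 receptor, Il3ra, had a log2 fold change of 0.11 ± 0.13, with 26.8 to 33.5 CPM in Ctr and 28.5 to 36.9 in αGlu. Il5ra, the IL-5 receptor chain, had 1 read or fewer in any library.

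**Figure D2:**
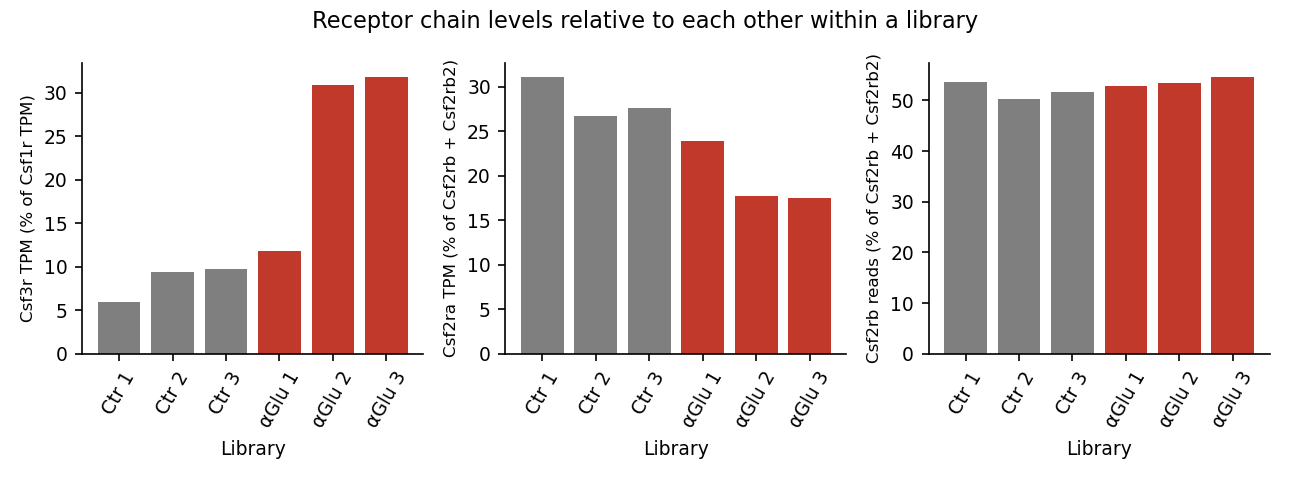
Receptor chain levels within each library, as Csf3r TPM in percent of Csf1r TPM (left), Csf2ra TPM in percent of the β chains Csf2rb plus Csf2rb2 (middle) and Csf2rb reads in percent of the reads of the β chain pair (right). The left ratio is 30.9% and 31.8% in αGlu 2 and 3 and at most 11.8% elsewhere, the middle ratio is at most 23.9% in αGlu and at least 26.7% in Ctr, and the right ratio lies between 50.3% and 54.6% throughout.

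Csf3r, the G-CSF receptor, had the largest difference of the set. Its values (chr4:126024550-126044440, plus strand) were 103, 141 and 158 CPM in Ctr 1, 2 and 3. In αGlu 1, 2 and 3 they were 183, 536 and 607 CPM. All αGlu libraries were above all Ctr libraries, but αGlu 1 was close to Ctr 3 and far below αGlu 2 and αGlu 3. The group means were 134 ± 28.4 and 442 ± 227 CPM, and the log2 fold change was 1.72 ± 0.46, or 3.30-fold. Without αGlu 1 it was 2.09, or 4.26-fold. On the log2 CPM scale αGlu 1 differed from the Ctr mean by 0.48, and the mean of αGlu 2 and αGlu 3 differed from it by 2.11. With all libraries it stood at place 277 of the 11933 genes counted from the highest fold change.

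Ratios between receptor chains set the same libraries apart, which follows from the levels of Csf3r and Csf2ra given above and is no separate result. Csf3r TPM was 5.93%, 9.41% and 9.70% of Csf1r TPM in Ctr 1, 2 and 3, and 11.8%, 30.9% and 31.8% in αGlu 1, 2 and 3. Csf3r TPM over Csf2ra TPM was 0.283, 0.342 and 0.452 in Ctr and 0.597, 2.48 and 3.32 in αGlu, in the same order. Csf3r exceeded Csf2ra in αGlu 2 and αGlu 3 and in no other library. Levels of the proteins were not measured in these libraries.

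Since Csf3r is best known from neutrophils, 11 other neutrophil markers were read beside it. Their summed level was 26.4 to 69.8 CPM in Ctr and 57.1 to 140 CPM in αGlu, less than that of Csf3r alone in each library. Only 4 of the 11 averaged above 1 CPM, and the most abundant, Mmp8, a collagenase, averaged 39.9 CPM. Lcn2, an iron-sequestering protein, was at 0.591, 0.543 and 0.557 CPM in Ctr 1, 2 and 3, at 0 in αGlu 1 and at 106 and 62.3 CPM in αGlu 2 and 3. The other markers of the list were low, with S100a8 at no more than 2.11 CPM, S100a9 at no more than 0.954 CPM and the chemokine receptor Cxcr2 at no more than 0.418 CPM. Padi4 was at no more than 2.17 CPM, Ngp at no more than 1.63, Ltf at no more than 0.502 and Camp at no more than 0.0944. Ngp and Ltf had 0 reads in αGlu 2 and 3. Ly6g and Retnlg had 0 reads in every library. Markers of granulocyte precursors summed to 4.36 to 7.27 CPM in Ctr and 1.21 to 3.56 in αGlu, with Kit the most abundant at a mean of 1.504 CPM.

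**Figure D3:**
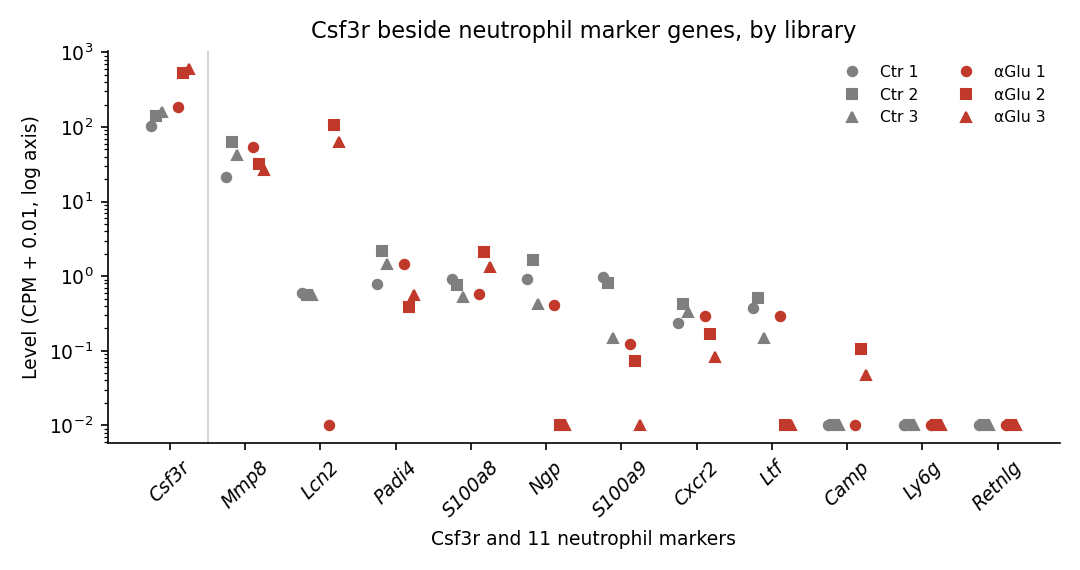
CPM (with 0.01 added, on a log axis) of Csf3r and 11 neutrophil markers in each library, Ctr in grey and αGlu in red. Csf3r is at 103 to 607 CPM, Mmp8 and, in αGlu 2 and 3 alone, Lcn2 exceed 10 CPM, and S100a8, S100a9, Cxcr2, Ly6g and Retnlg stay at or below 2.11 CPM.

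Markers of other cell types were low apart from Kdr and Il7r. Dendritic cell markers summed to 1.95 to 2.34 CPM in Ctr and 1.17 to 1.55 in αGlu, led by Clec9a at a mean of 0.835 CPM. Fibroblast and stromal markers summed to 2.01 to 7.95 CPM in Ctr and 2.14 to 3.15 in αGlu, led by Col1a2 at a mean of 0.997 CPM. Mast cell, basophil and eosinophil markers summed to 1.04 to 2.80 CPM in Ctr and 0.477 to 4.01 in αGlu, led by Cpa3 at 0.783 CPM. The endothelial list (14.9 to 44.8 CPM in Ctr and 29.7 to 56.1 in αGlu) was to 99.2% the VEGF receptor gene Kdr, and the lymphocyte list (599 to 833 CPM in Ctr and 257 to 682 in αGlu) was to 99.97% the IL-7 receptor gene Il7r. The part of any of these cells in the differences of the members was not tested.

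Over the 6 members that passed the filter, 2 had groups that did not overlap, Csf3r higher and Csf2ra lower in αGlu. Of all 11933 genes, 30.2% had groups that did not overlap, 14.2% higher and 15.9% lower in αGlu, and since the members were chosen with this contrast known, nothing is read from their count. Without αGlu 1 the count was 3 of 6, with Csf1r added, beside 65.8% of all genes. None of the 6 was called with all libraries. Each member's fold change was computed in 13 other ways, and all 78 values kept their sign and moved by less than the larger SD of the groups. This SD of log2 CPM took in αGlu 1 and was a wide limit, at 0.95 for Csf3r and 0.38 for Csf2ra in αGlu.

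**Figure D4:**
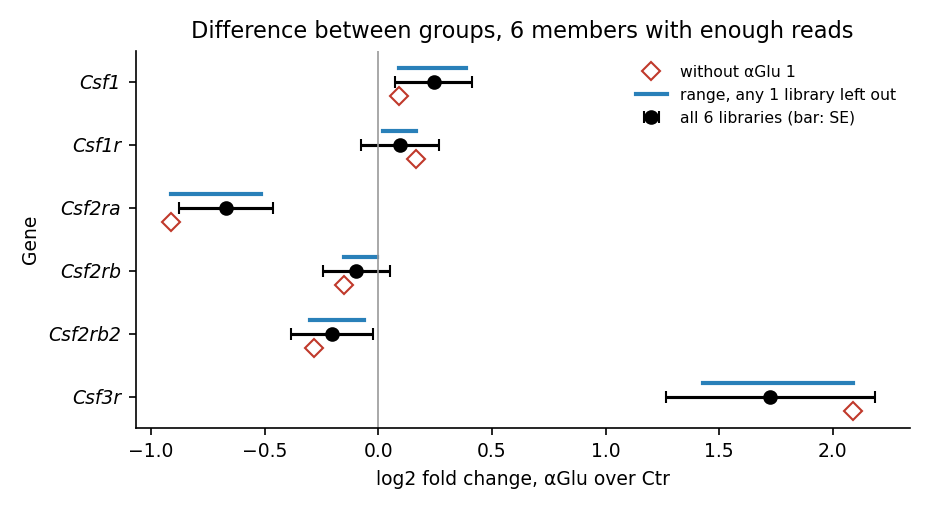
log2 fold change of αGlu over Ctr for the 6 members with enough reads, with all libraries (black, bar = SE), without αGlu 1 (red diamond) and over the libraries left out in turn (blue line). Csf3r stands at 1.72 and Csf2ra at -0.67, while the other members lie between -0.21 and 0.24.

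The members' patterns across libraries were compared with those of 8576 genes by Pearson's r of log2 CPM, as a description over 6 libraries that share their groups and depths. Csf3r and Csf2ra varied in opposite directions, with r = -0.957. Csf2rb and Csf2rb2 varied together at 0.982, each being among the genes most like the other, and reads that fit both genes would add to this. Csf1r varied against both β chains, at -0.923 with Csf2rb and -0.928 with Csf2rb2. The genes most like Csf3r were Vrk3, a kinase family member, at 0.9992, and Pkd2, a cation channel, at 0.9991. Those most like Csf2ra were Gna11, a G protein subunit, at 0.9985, and Ankrd13b at 0.9983. Such high values were common for these members, since 633 genes had r above 0.95 with Csf3r and 509 with Csf2ra, against 8 to 23 for the others. Csf1 was most like the kinase gene Mapk7 (0.994) and the histone methyltransferase gene Ehmt2 (0.982), and Csf1r was most like Yaf2 (0.994) and Heatr3 (0.981). The proteasome subunit gene Psmb6 followed for Csf2rb at 0.974, and Rbck1, part of a ubiquitin ligase complex, led for Csf2rb2 at 0.983.

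Genes that act with these receptors were read from lists of 67 genes, of which 62 were tested. With all libraries 0 were called, and 21 had an unadjusted p under 0.05, 11 higher and 10 lower in αGlu. That share stands beside 24.7% of all genes, of which 12.7% were higher and 11.9% lower. When libraries were scaled by total reads alone the split was 15 higher and 8 lower, and with limma-voom it was 7 higher and 14 lower. The count was 12 without Ctr 2, 13 without αGlu 3 and 43 without αGlu 1. The share of all genes at that threshold was not computed for these alternatives, so nothing is read from their counts. Without αGlu 1, 65.8% of all genes had groups that did not overlap. With all libraries the median log2 fold change of the 62 genes was 0.03, beside 0.02 for all genes. Without αGlu 1, 22 of the 62 were called, 12 higher and 10 lower, beside 18.6% of all genes. Adjusted p-values with all libraries (edgeR, Benjamini-Hochberg) ran from 0.149 for Shc1 and Dok2 to 0.600 for Il3ra over the genes named by rule below.

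Of 7 JAK and STAT genes, which relay the signal of the cytokine-type receptors, 2 were higher in αGlu at an unadjusted p under 0.05 and 0 were lower. Jak2, a kinase of the GM-CSF, IL-3 and G-CSF receptors among others, was at 142, 213 and 216 CPM in Ctr 1, 2 and 3, against 207, 762 and 840 CPM in αGlu 1, 2 and 3. αGlu 1 thus lay inside the Ctr range, and the log2 fold change was 1.66 ± 0.53. Stat3, a main target of the G-CSF receptor, was at 112 to 132 CPM in Ctr, against 147, 233 and 233 CPM in the αGlu libraries. The log2 fold change was 0.75 ± 0.20. The median of the list was 0.06.

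Of 17 receptor-proximal adaptors and kinases, 1 was higher and 3 were lower, with a median of -0.10. The lower genes were the adaptor Shc1 (-0.56 ± 0.11), the kinase Akt1 (-0.30 ± 0.10) and the MAP kinase Mapk3 (-0.50 ± 0.17), all log2 fold changes. None of these overlapped between the groups, and Shc1 was at 92.6 to 115 CPM in Ctr and 65.6 to 76.4 CPM in αGlu. The higher gene was the Src family kinase Fgr, named after its values were seen. It was at 6.90 to 8.63 CPM in Ctr, against 4.19, 49.3 and 49.6 CPM in αGlu 1, 2 and 3.

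Of 15 negative regulators and sheddases, 3 were higher and 1 was lower, with a median of 0.26. Socs3, the feedback inhibitor of the G-CSF receptor and of gp130, was at 0.772, 0.418 and 0.139 CPM in Ctr 1, 2 and 3, at 0.516 in αGlu 1 and at 221 and 216 CPM in αGlu 2 and 3. The fitted log2 fold change of 8.34 ± 2.10 therefore joins a library inside the Ctr range with a pair far above it. Socs1, an inhibitor of JAK kinases, was at 7.27 to 9.23 CPM in Ctr, against 12.2, 38.6 and 39.6 CPM in αGlu (1.83 ± 0.45). Dok2, an adaptor that restrains signalling, was at 63.6 to 81.4 CPM in Ctr and 28.3 to 34.2 CPM in αGlu. The log2 fold change was -1.22 ± 0.12, and unlike Csf3r, Jak2 and Socs3 it had αGlu 1 beside the other αGlu libraries.

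Of the 9 tested transcription factors known for control of the receptor genes, 3 were higher and 2 lower, with a median of 0.08. Ets2, a target of M-CSF signalling, was at 10.9 to 11.8 CPM in Ctr, at 9.35 in αGlu 1 and at 134 and 145 CPM in αGlu 2 and 3 (3.09 ± 0.93). Klf4 was at 21.5 to 26.8 CPM in Ctr and 10.95 to 17.6 CPM in αGlu (-0.87 ± 0.22). Spi1, which encodes PU.1, Cebpb and Cebpa are given after their values were seen. Spi1 was at 237 to 258 CPM in Ctr and 189 to 225 CPM in αGlu. Cebpb was at 21.6 to 27.3 CPM in Ctr, against 22.1, 80.8 and 52.8 CPM in αGlu. The related factors Cebpb and Cebpa went opposite ways without αGlu 1, at log2 fold changes of 1.49 ± 0.19 and -2.25 ± 0.20. Cebpe was not tested, with 6 reads or fewer in any library.

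Of 13 genes that respond to these factors, 2 were higher and 4 were lower, with a median of -0.70. Irf4, a factor of GM-CSF and IL-4 responses, was at 25.3 to 30.3 CPM in Ctr, against 8.95, 2.05 and 1.54 CPM in αGlu 1, 2 and 3 (-2.76 ± 0.68). Bhlhe40 was at 306 to 350 CPM in Ctr and 169 to 243 CPM in αGlu (-0.70 ± 0.16). Pim1, a kinase induced by STAT5, was at 116 to 150 CPM in Ctr and 163 to 257 CPM in αGlu (0.74 ± 0.20), so the list did not move as one. Itgax and Pparg, both known as GM-CSF-responsive genes of myeloid cells, are given after their values were seen. Itgax was at 1175 to 1548 CPM in Ctr, against 418, 17.6 and 13.8 CPM in αGlu, and Pparg was at 201 to 217 CPM in Ctr and at 183, 13.001 and 12.36 CPM. Neither had an unadjusted p under 0.05 with all libraries, and both were called without αGlu 1, at log2 fold changes of -6.40 ± 0.22 and -4.03 ± 0.10. These calls rest on leaving out a library after its values were seen, and the SEs lack the spread that αGlu 1 adds. Over all the lists, 12 of the genes called without αGlu 1 were higher and 10 lower. The higher ones included Cish (1.68 ± 0.13), Socs2 (1.36 ± 0.25) and Osm (1.77 ± 0.21), also named after their values were seen. Irf4 and Pparg also respond to IL-4, which all cells received.

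**Figure D5:**
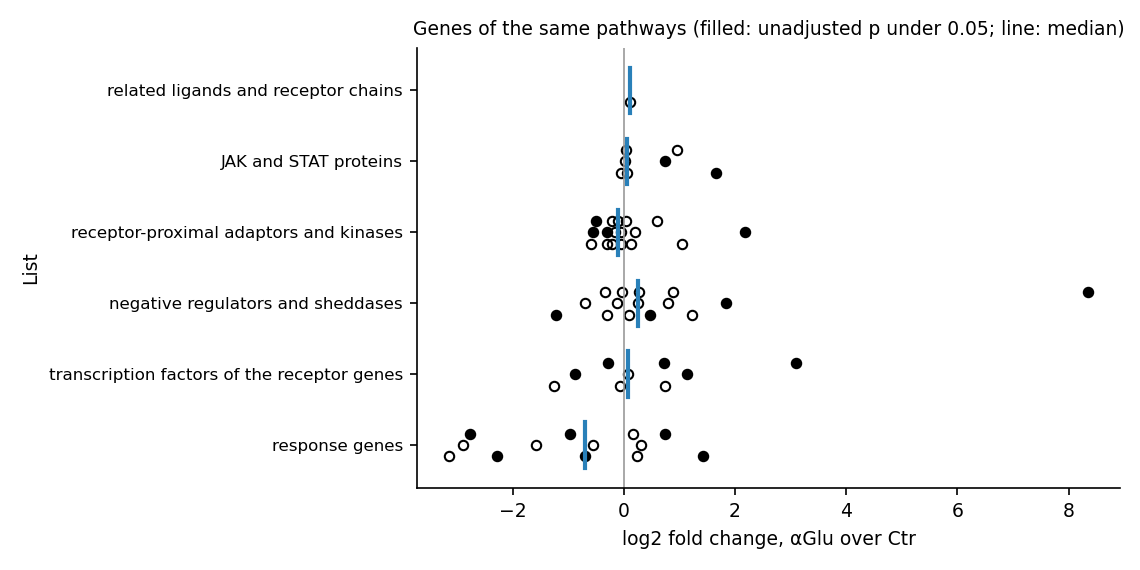
log2 fold change of αGlu over Ctr for the 62 tested genes of 6 lists, 1 circle a gene, filled at an unadjusted p under 0.05, with the median of each list as a blue line. Medians lie between -0.70 for the response genes and 0.26 for the negative regulators, and Socs3 stands apart at 8.34.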

How the data were processed

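Messenger RNA libraries (Illumina stranded, NovaSeq) of 3 Ctr and 3 αGlu samples, grouped by their labels, were used. Reads were taken through QIAGEN's RNA-seq portal by the authors, and their processing notes name the build GRCm38; aligner, annotation, strand setting and handling of reads that match several genes are not given in the sources used here. The authors deposited, per gene and library, whole counts of exon reads without normalization, RPKM (scaled by exon length and depth) and TPM, which sums to the same total per library. RPKM was used only to derive gene lengths, and 6 deposited CPM columns were not used. Genes with low counts were dropped by edgeR 4.0.16 (filterByExpr, at least 10 reads, total at least 15), and the libraries were scaled by TMM factors and fitted with edgeR's quasi-likelihood model in R 4.3.3 with the group as its only term, two-sided, with Benjamini-Hochberg adjustment over 11933 genes. CPM was computed from the counts and library sizes multiplied by their TMM factors, and a prior count of 2 was added for log2 CPM. The SE is the fold change divided by the root of its F value. Since the labels do not name animals, p-values measure only the spread between these libraries.

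Coordinates and transcripts came from GENCODE M21 and coding sequences were aligned with Biopython 1.88. Alternatives were DESeq2 1.42.0, limma-voom (limma 3.58.1), RLE factors, library size alone, other filters, deposited TPM, the replicate number as a block and each library left out. The fits were tested on simulated counts with the spread of the Ctr libraries and the same changes in every αGlu library. That setting lacks the differences among the αGlu libraries seen here. The members and gene lists were chosen with earlier results of these data known. Named were the members, the 3 genes of each pathway list with the smallest unadjusted p, the 2 genes (mean log2 CPM of at least 3) most like each member, and the most abundant gene of each marker list. For 2 genes that this rule named, the values are not reported here. Others are said to be named after their values were seen, which holds also for the neutrophil markers other than Mmp8. Tyrobp stands in both a pathway and a marker list.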

Additional observations from a re-analysis of the deposited data

How the results depend on the processing

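The number of genes called depended on the method and on single libraries, and the cause was not tested. edgeR's quasi-likelihood test called 0 genes (2943 of 11933 at an unadjusted p under 0.05), limma-voom 0, DESeq2 1117 (579 higher, 538 lower in αGlu) and edgeR with a replicate block 17 (9 higher, 8 lower). Leaving out libraries in turn gave 0 to 2290 calls, the 2290 (993 higher, 1297 lower) only without αGlu 1. Same-numbered libraries deviated together at r of 0.0646 to 0.154, and differently numbered ones at -0.112 to 0.0459. Every same-numbered pair thus lay above every differently numbered pair. The same-numbered values were not above 0.1 in every pair and the labels name no animals, so the main fit left the samples unpaired. The study used a paired test for the fragment's level in transfected Mφs. Whether the numbers pair the samples was left undecided. The pathway genes at an unadjusted p under 0.05 (21) numbered 25 with the replicate block, 31 with DESeq2, 20 to 27 under other filters, and 12 to 43 over libraries left out. The share of all genes at that threshold was not computed for these alternatives. The count of members without overlap was 2 with deposited TPM, RLE factors and library size alone, and 2 to 3 over libraries left out. The share of Csf2rb in the β chain pair moved from 51.9% of reads to 41.3% of TPM, a scale that divides by gene length. The median log2 fold change of all genes was 0.02 with TMM factors and 0.10 with library size alone. Csf2 and Csf3 had 3 reads or fewer in each library. Both ligands thus stood near 0 in both groups, and a difference within such low counts was not detectable at this depth.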
